A study of Homo sapiens with 6 samples.

Results

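SOX10, TFAP2B, FOXD3, ERBB3 and NGFR are 5 genes of the neural crest programme. They were taken as a named set and followed through every drug dose of a melanoma cell line, where they were 5 of 15945 genes in the count table. A lung cancer cell line served as contrast: its table of 15429 genes held SOX10 and ERBB3, and the other 3 genes were not analysed there.

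The study measured single-cell RNA in populations of 2 human cancer lines grown in rising doses of a targeted drug. A375 is a melanoma line labelled BRAF-V600E, and dabrafenib inhibits the mutant BRAF kinase. The A375 cells were an untreated culture and 8 cultures adapted by dose escalation to dabrafenib at 30, 60, 125, 250 or 500 nM or at 1, 2 or 4 µM. PC9 is a lung adenocarcinoma line labelled EGFR-del, and osimertinib inhibits the mutant EGFR kinase. The PC9 cells were an untreated culture, 8 cultures adapted to 8, 16, 32, 75, 150, 300 and 600 nM and 1.2 µM osimertinib, and persister cells that survived 9 days of 1.2 µM osimertinib. All A375 cultures carry the BRAF allele and all PC9 cultures the EGFR allele, the untreated ones included. Each population was 1 culture. All cultures of a line were tagged and loaded as 1 pool, so differences between populations had no replicate check, and no p-value is given.

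The A375 table held 8505 cells, from 379 at 125 nM to 2011 untreated, with 2938641 to 21976644 unique molecular identifiers (UMIs, single counted RNA molecules) per population. The PC9 table held 11258 cells and 4908228 to 10552237 UMIs per population. Median UMIs per cell were 7337 to 9804 in A375 and 5776 to 7968 in PC9, and the median mitochondrial share was 5.22 to 7.67% and 7.42 to 8.55%. No barcode occurred more than once within a line, and 27 barcodes occurred in both tables. Untreated A375 cells expressed S100B at 164, PRAME at 120, CSPG4 at 83.1 and MITF at 73.4 CPM (UMIs of a gene per 1000000 UMIs). The pigment genes PMEL (1.32 CPM), TYRP1 (0.228 CPM), MLANA (0.273 CPM) and TYR (0.0910 CPM) were near 0. The pigment gene DCT was 6.55 CPM in untreated cells and 110 CPM at 30 nM. In untreated cells the melanocytic label thus rested on S100B, PRAME, CSPG4, MITF and SOX10 more than on pigment genes. MITF was not particular to A375, at 33.5 CPM in untreated PC9 cells and 83.5 CPM in PC9 persisters. Untreated PC9 cells expressed the epithelial genes EPCAM at 441 and KRT18 at 2958 CPM.

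The neural crest is the embryonic population that gives rise to melanocytes, Schwann cells and other peripheral glia. SOX10 is the high-mobility-group transcription factor that keeps crest cells, glia and melanocytes in their lineage, and it activates ERBB3, the neuregulin receptor of migrating crest and glial precursors. FOXD3 and TFAP2B are transcription factors of the early crest and its derivatives, and NGFR, the low-affinity neurotrophin receptor, marks crest stem cells and the crest-like state of melanoma cells.

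On GRCh38 with GENCODE v29 gene models, SOX10 (ENSG00000100146.16) lies at chr22:37970686-37987422 on the minus strand. ERBB3 (ENSG00000065361.15) lies at chr12:56076799-56103505, TFAP2B (ENSG00000008196.12) at chr6:50818723-50847613, FOXD3 (ENSG00000187140.5) at chr1:63323041-63325126 and NGFR (ENSG00000064300.8) at chr17:49495293-49515017, all on the plus strand. The 16737 bases of SOX10 lie wholly inside POLR2F, an RNA polymerase subunit gene on the opposite strand. POLR2F was 269 CPM in untreated A375 cells and 136 CPM at 4 µM, and 223 to 337 CPM in PC9 populations that had at most 0.412 CPM of SOX10. FOXD3 overlaps FOXD3-AS1 on the opposite strand over 1401 bases, and ERBB3 shares 2175 bases of its own strand with AC034102.2, which had at most 1.02 CPM in any A375 population.

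RefSeq promoter sequence was at hand for 2 of the 5 genes, FOXD3 and TFAP2B. The FOXD3 window is shown because it holds the letters that SOX factors read, and because FOXD3 RNA is set against SOX10 RNA cell by cell in later results. It covers the 250 bases before the RefSeq start, chr1:63322317-63322566 on GRCh38.p14, plus strand, written 5′ to 3′. Capitals mark the match, ACAAAG read on the minus strand, at bases 125 to 130 and 120 bases before the RefSeq start. The GENCODE v29 start of FOXD3, 63323041, lies further downstream, so the 2 gene models differ in the start.
FOXD3: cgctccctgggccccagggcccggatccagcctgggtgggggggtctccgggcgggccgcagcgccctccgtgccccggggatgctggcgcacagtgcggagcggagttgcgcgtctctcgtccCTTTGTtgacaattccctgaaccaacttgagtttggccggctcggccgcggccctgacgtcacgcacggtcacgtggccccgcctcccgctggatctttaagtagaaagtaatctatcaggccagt
ACAAAG or ACAATG on either strand occurred in 21.2% of 35116 promoters of that length, so the match is a common one. The TFAP2B window, chr6:50818621-50818870, held neither of them, and it runs past the GENCODE v29 start of that gene, 50818723. Neither window held GCCNNNGGC, the letters of TFAP2 factors, which occurred in 19.8% of promoters.

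Over all cells, SOX10 RNA held its untreated level up to 250 nM, apart from a dip at 30 nM, and stood far lower from 500 nM upward. SOX10 was 208 CPM in untreated A375 cells, 137 (30 nM), 208 (60 nM), 206 (125 nM), 211 (250 nM), 68.0 (500 nM), 29.9 (1 µM), 29.1 (2 µM) and 38.2 (4 µM). The untreated, 60, 125 and 250 nM values lay within counting error of their neighbours, and so did those at 1 and 2 µM. In cells of the authors' cell tables (listed cells) SOX10 was 278 CPM untreated and 211, 215 and 223 CPM at 60, 125 and 250 nM. In the other cells it was 191 CPM untreated and 205, 159 and 171 CPM. Listed cells were 442 of 2011 untreated and 733 of 903 at 250 nM, so the level over all cells also depends on this share. The listed cells carry the authors' label g1. Whether cell cycle phase sets listed cells apart from the others was not tested. Against untreated cells SOX10 was 1.51-fold lower at 30 nM (95% interval 1.41 to 1.62), 3.06-fold lower at 500 nM (2.78 to 3.37), 6.94-fold lower at 1 µM (6.15 to 7.87), 7.14-fold lower at 2 µM (6.29 to 8.13) and 5.43-fold lower at 4 µM (4.83 to 6.14). All intervals here cover counting error only and not the spread between cultures. The drop between adjacent doses was greatest from 250 to 500 nM, 3.10-fold (2.80 to 3.44), and 4 µM stood 1.31-fold above 2 µM (1.11 to 1.56).

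ERBB3, the receptor gene that SOX10 activates in the crest lineage, ran beside it. Its level was 183 CPM untreated, 132 (30 nM), 184 (60 nM), 214 (125 nM), 187 (250 nM), 64.0 (500 nM), 27.3 (1 µM), 28.3 (2 µM) and 36.1 (4 µM). Unlike SOX10, ERBB3 at 125 nM over all cells stood above its neighbours, 1.17-fold over untreated (1.07 to 1.27). Its 60 and 250 nM levels over all cells lay within counting error of untreated. In listed cells ERBB3 was 240 CPM untreated, 186 at 60 nM, 222 at 125 nM and 195 at 250 nM. In the other cells it was 170, 182, 171 and 156 CPM, so neither part showed the 1.17-fold excess at 125 nM. At 500 nM ERBB3 was 2.86-fold lower than untreated (2.59 to 3.17), and at 4 µM 5.07-fold lower (4.49 to 5.75).

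TFAP2B took another course below 500 nM. Over all cells it stood higher at each dose from 60 to 250 nM, where SOX10 kept its untreated level. In listed cells only, its 60 nM level was 390 CPM against 370 CPM untreated, a smaller gap than the 1.64-fold of all cells. TFAP2B was 230 CPM untreated, 121 (30 nM), 377 (60 nM), 473 (125 nM), 627 (250 nM), 123 (500 nM), 52.0 (1 µM), 58.3 (2 µM) and 73.1 (4 µM). It was 2.06-fold higher than untreated at 125 nM (1.94 to 2.19) and 2.73-fold higher at 250 nM (2.63 to 2.84), then 1.87-fold lower at 500 nM (1.73 to 2.01), 4.42-fold lower at 1 µM, 3.94-fold lower at 2 µM and 3.14-fold lower at 4 µM (2.88 to 3.44). From 250 to 500 nM the fall was 5.10-fold (4.74 to 5.49). The 30 nM and 500 nM populations lay within counting error of each other.

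FOXD3 and NGFR peaked, over all cells, at the lowest dose, 30 nM, where SOX10, ERBB3 and TFAP2B were all below untreated. FOXD3 was 8.42 CPM untreated, 43.5 (30 nM), 16.5 (60 nM), 18.7 (125 nM), 15.3 (250 nM), 15.6 (500 nM), 6.42 (1 µM), 4.68 (2 µM) and 4.58 (4 µM). NGFR was 6.05 CPM untreated, 80.4 (30 nM), 6.78 (60 nM), 4.08 (125 nM), 1.76 (250 nM), 6.58 (500 nM), 2.39 (1 µM), 2.40 (2 µM) and 2.36 (4 µM). Both genes stood alone at the top at 30 nM, and the other doses of NGFR lay within counting error of their neighbours in the order. Across that order NGFR still varied. Against untreated it was 3.43-fold lower at 250 nM (1.97 to 6.44) and 2.57-fold lower at 4 µM (1.56 to 4.47). The intervals at 60, 125 and 500 nM spanned 1. All of these NGFR levels were under the minimum for a call.

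At 30 nM FOXD3 was 5.17-fold higher than untreated (4.29 to 6.24) and NGFR 13.3-fold higher (11.0 to 16.2). From 60 to 500 nM FOXD3 was 1.81-fold to 2.22-fold over untreated. Above 500 nM it rested on 35 to 59 UMIs and stayed under 10 CPM, the minimum used for a call. NGFR rested on 564 UMIs at 30 nM and on 12 to 133 at the other doses. From 30 to 60 nM NGFR fell 11.9-fold and FOXD3 2.64-fold, while TFAP2B rose 3.12-fold.

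**Figure D1:**
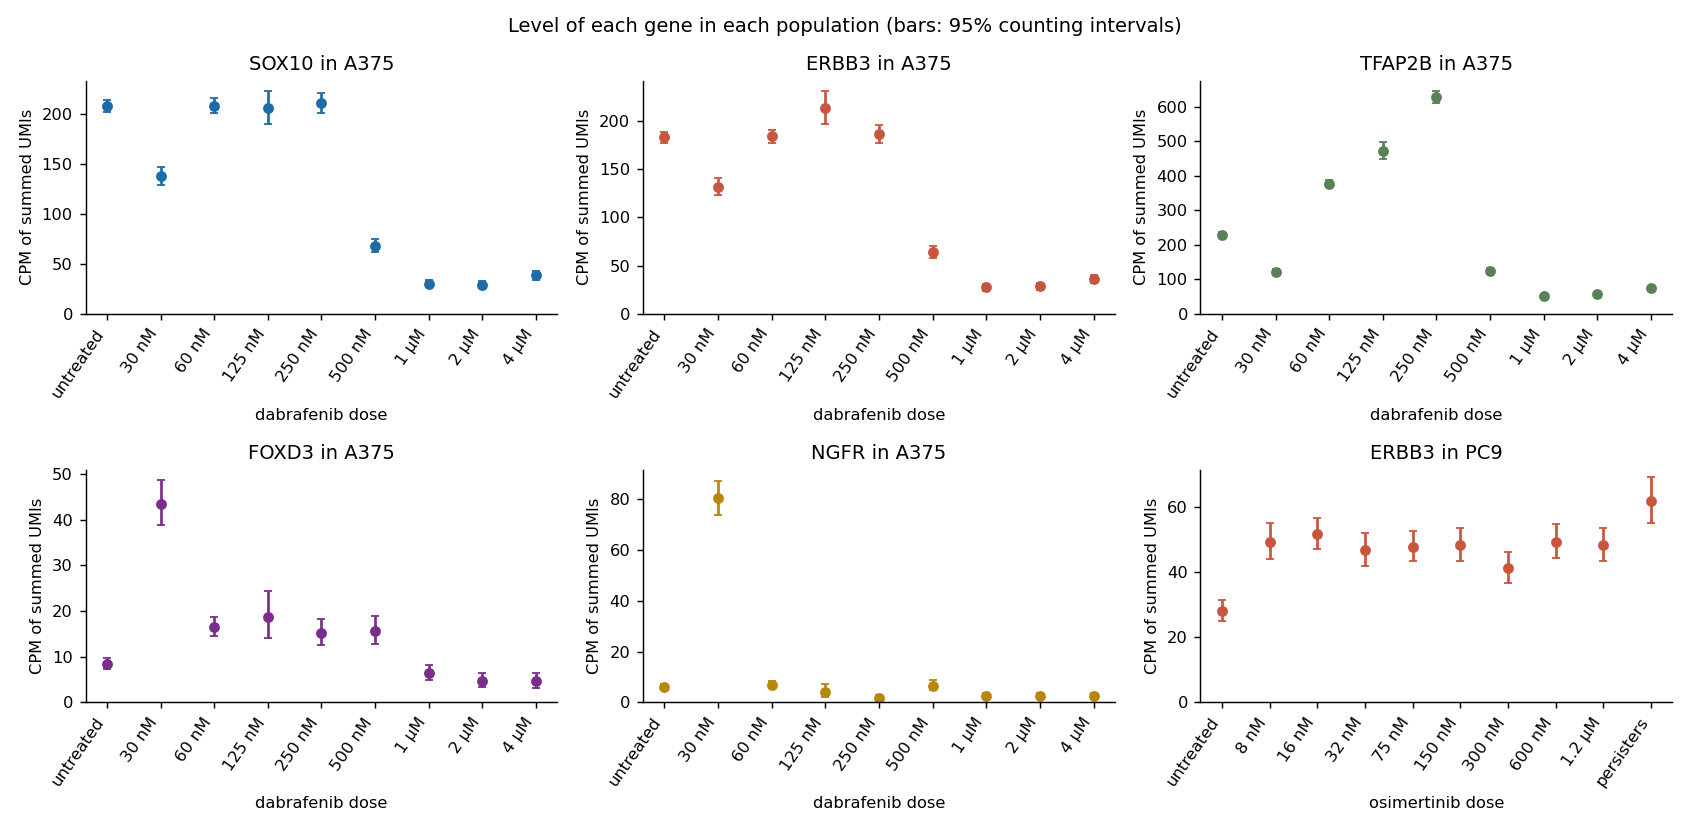
CPM of SOX10, ERBB3, TFAP2B, FOXD3 and NGFR in each A375 population, and of ERBB3 in each PC9 population, against drug dose. Points are CPM of summed UMIs on linear axes that differ between panels, and bars are 95% counting intervals. SOX10 and ERBB3 stand between 132 and 214 CPM up to 250 nM and at 68.0 and 64.0 CPM at 500 nM, TFAP2B peaks at 627 CPM at 250 nM, and NGFR peaks at 80.4 CPM at 30 nM.

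A gene was measured in a comparison where the higher population had at least 10 CPM and 20 UMIs, and called where it differed at least 2-fold on the log2(CPM + 1) scale. Of the 5 genes measured at 30 nM, FOXD3 and NGFR were called higher, where 4.03% of all 9882 measured genes were, and 0 were called lower, against 4.97% of all genes. At 60 nM 0 of 4 passed in either direction (1.64% of all genes higher, 1.07% lower). TFAP2B and FOXD3 passed as higher at 125 nM (3.73% of all genes higher, 6.44% lower), and TFAP2B alone at 250 nM (3.91% higher, 5.45% lower). Of all calls at 125 nM, 63.3% were lower, and 52.1% were when totals left out mitochondrial and ribosomal protein genes.

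At 500 nM SOX10 and ERBB3 were called lower out of 4 measured genes (6.86% of all genes lower, 4.58% higher). SOX10, ERBB3 and TFAP2B were called lower, 3 of 3 measured, at 1 µM (8.74% of all genes lower, 4.82% higher), at 2 µM (9.63% lower, 5.1% higher) and at 4 µM (8.89% lower, 5.59% higher). Against 250 nM, 3 of 4 genes were called lower at 500 nM (4.58% of all genes). Against 30 nM, 4 of 5 were called lower at 4 µM (3.29% of all genes): SOX10 3.60-fold, ERBB3 3.65-fold, FOXD3 9.49-fold and NGFR 34.1-fold (21.4 to 58.0), with TFAP2B 1.66-fold lower and not called. These comparisons share the untreated, 250 nM or 30 nM cells, so their counts are not separate lines of evidence.

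In cells of the authors' cell tables alone, which hold 5059 of the A375 cells, the TFAP2B increase at 250 nM was 0.89 and its decrease at 30 nM -1.50 on the log2 scale, so the call at 250 nM ended and one at 30 nM appeared. The calls at 125 nM also ended in listed cells, with TFAP2B at 502 against 370 CPM untreated and FOXD3 above its untreated 11.1 CPM by less than 2-fold. Calls appeared for TFAP2B at 500 nM (122 CPM, lower), FOXD3 at 2 µM (3.64 CPM) and 4 µM (3.75 CPM, both lower) and NGFR at 60 nM (10.3 against 4.01 CPM, higher). SOX10 at 4 µM was 28.5 CPM in listed cells and 52.5 CPM in the others, against 278 and 191 CPM in untreated cells. Its log2 ratio at 4 µM moved from -2.41 to -3.24 with listed cells only and to -3.07 without cells of more than 2 times the median UMIs.

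PC9 cells were near 0 for SOX10, with 0 to 3 UMIs per population and 13 in all. ERBB3 in PC9 was 28.1 CPM untreated, 49.2 (8 nM), 51.6 (16 nM), 46.7 (32 nM), 47.7 (75 nM), 48.1 (150 nM), 41.1 (300 nM), 49.2 (600 nM), 48.1 (1.2 µM) and 61.7 in persisters. The adapted populations were all above untreated, did not order with dose, and lay within counting error of their neighbours in the order of levels.

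At 1.2 µM ERBB3 was 1.72-fold above untreated PC9 (1.47 to 2.01), 0 of 1 measured genes called higher where 6% of all genes were. In persisters ERBB3 was 2.20-fold above untreated (1.87 to 2.59), 1 of 1 called higher where 10.6% of all genes were, and 1.28-fold above 1.2 µM (1.10 to 1.50). In listed cells only, ERBB3 was 43.3 CPM untreated, 46.8 at 1.2 µM and 63.9 in persisters, and the call in persisters ended. ERBB3 thus stood higher under osimertinib in PC9 and lower under high-dose dabrafenib in A375, but the difference between the lines was not tested, and the drugs differ too.

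To count cells rather than RNA, each cell was thinned to 3832 UMIs so that depth was equal in all cells and both lines, and shallower cells were left out. SOX10 was then detected in 55.2% of untreated cells, 41.4% (30 nM), 52.7% (60 nM), 48.9% (125 nM), 52.7% (250 nM), 18.6% (500 nM), 7.83% (1 µM), 6.35% (2 µM) and 9.90% (4 µM). In PC9, with its near absence of SOX10, the thinned share was at most 0.207%. PC9 was a separate pool and does not measure free SOX10 RNA in the A375 pool, where clusters 6 and 7 of the authors' tables held 7.19 and 5.56 CPM of SOX10. The part of free RNA in the high-dose shares was not tested. As deposited, without thinning, SOX10 was detected in 82.8% of untreated cells and 18.4% at 4 µM.

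ERBB3 was detected in 51.5% of untreated cells, 18.6% at 500 nM and 9.58% at 4 µM, and in PC9 in 10.3% of untreated cells, 15.0 to 17.5% of adapted cells and 22.6% of persisters. TFAP2B was detected in 49.2% of untreated cells, 27.2% (30 nM), 81.3% (250 nM), 21.4% (500 nM) and 12.6% (4 µM). NGFR was detected in 26.1% of cells at 30 nM and in 0.591 to 3.07% at the other doses, and FOXD3 in 17.8% at 30 nM and 1.28 to 7.48% elsewhere. In cells with SOX10, the mean count fell less than the share of cells did, from 1.57 UMIs per detected cell untreated to 1.21 at 4 µM, a count that nears its lowest value of 1.

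The 3 abundant genes, SOX10, ERBB3 and TFAP2B, were then counted together in each thinned cell. From 500 nM upward most cells had none of them. Exactly 1 was seen in 103 of 618 cells at 500 nM and in 67 of 626 at 4 µM, more cells than had all 3. All 3 were detected in 16.2% of untreated cells, and below 500 nM the share was 12.2% (30 nM), 22.9% (60 nM), 22.7% (125 nM) and 26.6% (250 nM). From there it was 6.31% at 500 nM (95% interval 4.53 to 8.53), 1.84% at 1 µM (1.03 to 3.01), 1.52% at 2 µM and 2.56% at 4 µM (1.47 to 4.12). None was detected in 13.3% of untreated cells, 38.1% (30 nM), 10.2% (250 nM), 65.5% (500 nM), 83.8% (1 µM), 83.1% (2 µM) and 79.9% (4 µM).

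The product of the 3 single shares is the share of cells that would have all 3 if each gene were detected without regard to the others. It was 14.0% untreated, near the 16.2% seen, and the ratio of seen to product was 1.16. That ratio was 2.74 (30 nM), 1.38 (60 nM), 1.33 (125 nM), 1.26 (250 nM), 8.53 (500 nM), 34.3 (1 µM), 31.5 (2 µM) and 21.3 (4 µM). It cannot exceed the smallest single share over the product, which was 49.2% over 14.0% untreated and 9.58% over 0.120% at 4 µM. Low detection thus leaves room for far larger ratios, and their size is not comparable between populations of unlike detection. The high-dose ratios rest on 39 cells at 500 nM and on 15, 12 and 16 cells at 1, 2 and 4 µM. At 4 µM the ratio was 35.3 without cells of more than 2 times the median UMIs (9 cells left), 34.1 in listed cells only and 17.4 without thinning. Without thinning it was 1.72 at 30 nM, 20.8 at 1 µM and 20.5 at 2 µM, and in listed cells it was 0.970 untreated and 1.90 at 30 nM.

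**Figure D2:**
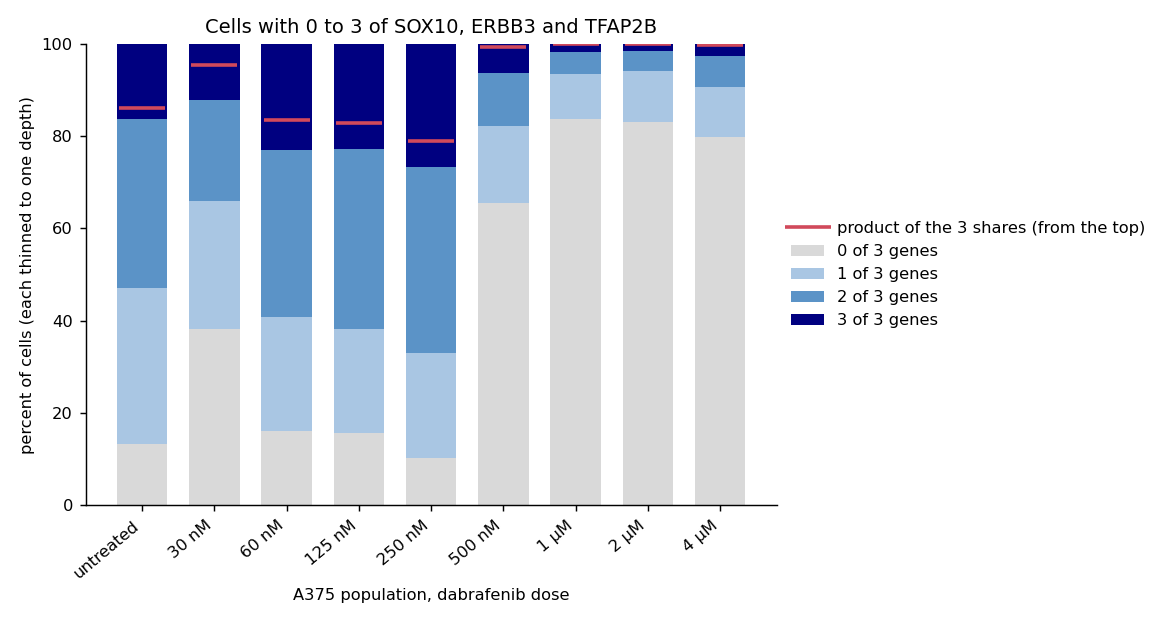
Percent of thinned cells with 0, 1, 2 or 3 of SOX10, ERBB3 and TFAP2B in each A375 population, stacked. The red line marks the product of the single shares, measured down from 100 as the all-3 class is. Cells with none make up 13.3% untreated and 79.9% at 4 µM, and the all-3 class, 2.56% at 4 µM, lies above its product of 0.120%.

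Detection was also compared in pairs of genes. ERBB3 was detected in 53.3% of SOX10-positive and 49.3% of SOX10-negative untreated cells, a small gap. It was detected in 59.4 against 25.6% at 30 nM, 48.7 against 11.7% at 500 nM and 32.3 against 7.09% at 4 µM. TFAP2B was detected in 53.0 against 44.5% of untreated cells, 37.0 against 20.3% at 30 nM, 60 against 12.5% at 500 nM and 66.1 against 6.74% at 4 µM.

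FOXD3 and NGFR were seen more often in SOX10-positive cells at 30 nM, the population in which both peaked. At 30 nM FOXD3 was detected in 25.6% of SOX10-positive against 12.2% of SOX10-negative cells, and NGFR in 35.8 against 19.2%. FOXD3 was detected in 31.9% of NGFR-positive and 12.8% of NGFR-negative cells. At 500 nM FOXD3 was detected in 20.9% of SOX10-positive and 2.98% of SOX10-negative cells.

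The level of each gene in cells grouped by the other 2 abundant genes does not use its own detection. Cells were grouped by their thinned counts, and levels were taken from all their UMIs. SOX10 was 253 CPM in untreated cells with both ERBB3 and TFAP2B and 164 CPM in those with neither, 236 against 81.8 at 30 nM, and 256 against 97.3 at 250 nM. At 500 nM it was 268 CPM (227 to 313, 63 cells) against 24.0 CPM (434 cells), at 1 µM 127 against 12.8, at 2 µM 157 against 12.0 and at 4 µM 176 CPM (139 to 218, 30 cells) against 12.7 CPM (517 cells). The SOX10 level of the 500 nM cells with both partners lay near that of the same class of untreated cells. As a ratio, the gap to cells with neither was already wider than untreated at 30 nM and at 125 nM (256 against 69.7 CPM). It was wider still from 500 nM.

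ERBB3 was 222 CPM in untreated cells with both SOX10 and TFAP2B and 142 with neither, 203 against 23.9 at 500 nM and 116 against 14.2 at 4 µM. TFAP2B was 266 against 174 CPM untreated, 712 against 439 at 250 nM, 475 against 55.3 at 500 nM and 352 against 26.7 at 4 µM. The cells with both partner genes of SOX10 had median UMIs of 6838 against 10960 at 30 nM, 6973 against 9652.5 at 500 nM and 14571 against 9884 at 4 µM, so depth did not run one way with the class, and its part in the result was not tested. No doublet caller was run.

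**Figure D3:**
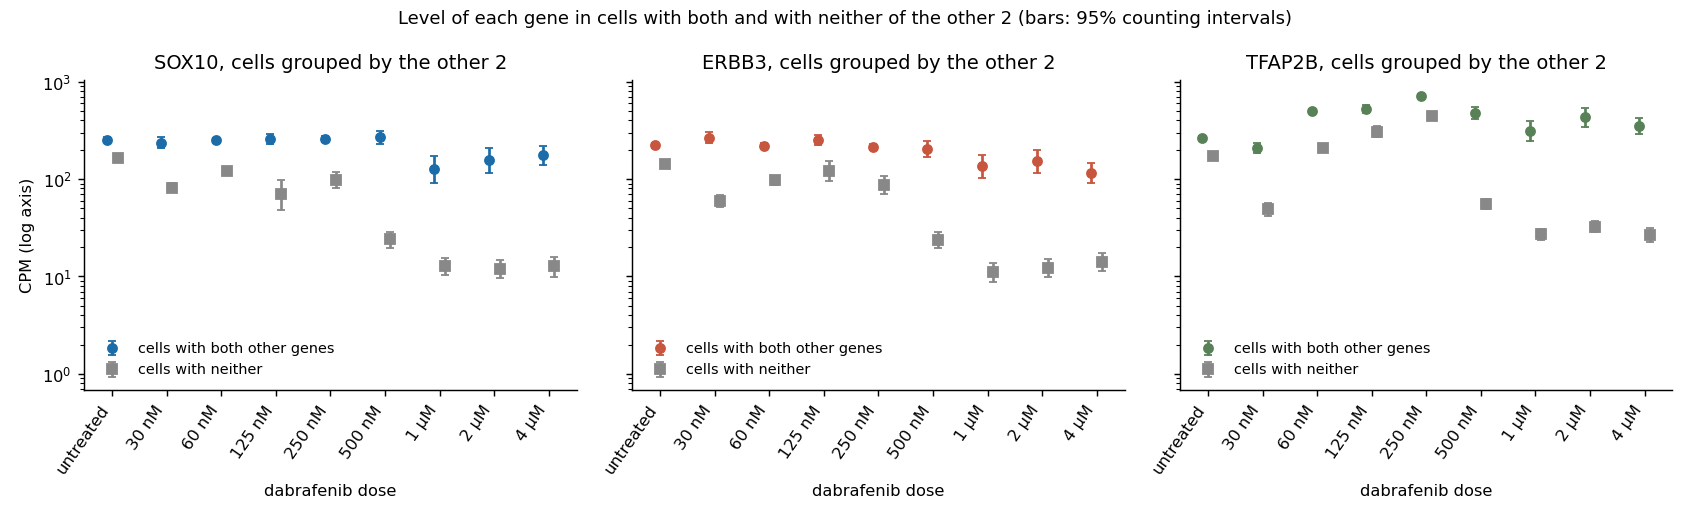
CPM, on a log axis, of SOX10, ERBB3 and TFAP2B in thinned cells with both or with neither of the other 2 genes, against dabrafenib dose, with 95% counting intervals as bars. For SOX10 the classes are close together untreated (253 against 164 CPM) and far apart at 500 nM (268 against 24.0 CPM) and 4 µM (176 against 12.7 CPM).

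Cells with all 3 genes and cells with none were compared for the genes downstream of SOX10 and for the other 2 members. FOXD3 was 103 CPM in the all-3 cells and 14.9 in the none cells at 30 nM, 73.0 (22 UMIs) against 2.71 at 500 nM and 30.2 (7 UMIs) against 1.65 at 4 µM. At 60 nM, with 299 all-3 cells, the FOXD3 level was not higher in them, at 11.4 (36 UMIs) against 13.3 CPM (31 UMIs). Its thinned detection there was 7.36% of all-3 cells (22 of 299) and 3.79% of none cells (8 of 211). In untreated cells FOXD3 was 10.7 against 4.23 CPM. NGFR was 141 against 34.9 CPM at 30 nM, 6.65 against 5.16 at 60 nM and 4.57 against 7.86 untreated, and had 4 or fewer UMIs in all-3 cells from 500 nM upward. These comparisons used 75 against 234 cells at 30 nM, 39 against 405 at 500 nM and 16 against 500 at 4 µM, within 1 culture each, and have no test.

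Of the targets and partners of SOX10, 5 of 7 measured genes were called higher in all-3 cells at 30 nM, 5 of 6 at 500 nM and 5 of 6 at 4 µM, with 0 called lower at each dose. The share of all measured genes called higher was 5.84% at 30 nM, 7.85% at 500 nM and 3.56% at 4 µM, and the share called lower 8.26%, 18.6% and 16.5%. The list's median log2 difference was 1.46, 3.26 and 2.95 at these doses, against -0.10, -0.27 and -0.27 over all measured genes.

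At 500 nM the calcium-binding gene S100B, in both the glial and the melanocyte marker list, was 488 CPM in all-3 cells against 18.8 in none cells, 26.0-fold higher (19.7 to 34.5). The glial cadherin CDH19 was 269 against 11.5 CPM, the myelin gene PMP22 623 against 75.5, and the pigment enzyme DCT 66.3 against 4.97. MITF, the melanocyte master factor, was 143 against 136 CPM and was not called. Among these named SOX10 targets the difference thus lay in S100B, CDH19, PMP22 and DCT and not in MITF. SOX6, a factor of the SOXD group, was 235 against 8.36 CPM and SOX5 2378 against 432 CPM.

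At 4 µM DCT was 254 against 8.97 CPM, S100B 228 against 11.2 and CDH19 121 against 6.96, while MITF was 116 against 83.1. The ligand genes NRG1 and BDNF, picked after their values were seen, were lower in all-3 cells. NRG1, a neuregulin that binds ERBB3, was 16.9 CPM in all-3 cells (11 UMIs) against 226 in none cells at 30 nM, and 13.3 (4 UMIs) against 308 at 500 nM and 129 (30 UMIs) against 342 at 4 µM. BDNF, a neurotrophin whose precursor binds NGFR, was 73.7 against 176 CPM at 30 nM and 49.7 against 246 at 500 nM.

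Neural crest specifiers split in direction between all-3 and none cells, with 3 higher and 1 lower of 12 measured at 30 nM, 3 and 3 of 10 at 500 nM, and 2 and 5 of 9 at 4 µM. The crest factor SOX9 was 3.32 CPM (1 UMI) in all-3 cells and 47.0 CPM in none cells at 500 nM. ERBB3 partners and ligands were lower for 3 of 7, 3 of 5 and 2 of 5 measured genes at the same doses and higher for 0, and NGFR ligands and co-receptors lower for 1 of 3, 1 of 4 and 2 of 4 and higher for 0. Beside these stand 8.26%, 18.6% and 16.5% of all measured genes lower, so 1 of 4 at 500 nM was near the share of all genes. The UMI minimum made higher calls harder to reach than lower ones in these lists, so the counts of 0 higher are limited by it. Neural crest-like melanoma markers were higher for 5 and lower for 2 of 7 at 30 nM, higher for 2 and lower for 1 of 3 at 500 nM, and higher for 1 and lower for 1 of 3 at 4 µM.

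Other marker lists moved with this split. The Schwann and glia list was called higher for 4 of 4 measured genes at 30 nM and 3 of 3 at 500 nM and 4 µM, but it shares S100B, CDH19 and PMP22 with the list of SOX10 targets. The lung epithelial list, mostly KRT18, summed to 153 CPM in all-3 cells and 1317 in none cells at 500 nM, and to 607 and 1007 at 4 µM. The fibroblast list, 7 of 8 genes with a row, summed to 43.0 and 168 CPM at 30 nM and to 43.1 and 119 at 4 µM. The immune list summed to at most 33.9 CPM and the endothelial list to at most 8.61 CPM in either class. Median UMIs per cell were 6632 in all-3 and 11366 in none cells at 30 nM, 6728 and 9783 at 500 nM, and 13318 and 9808 at 4 µM. Median mitochondrial shares were 5.50 and 5.39%, 5.72 and 6.15%, and 6.73 and 7.67%. The part of these markers, of depth and of the mitochondrial share in the result was not tested.

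**Figure D4:**
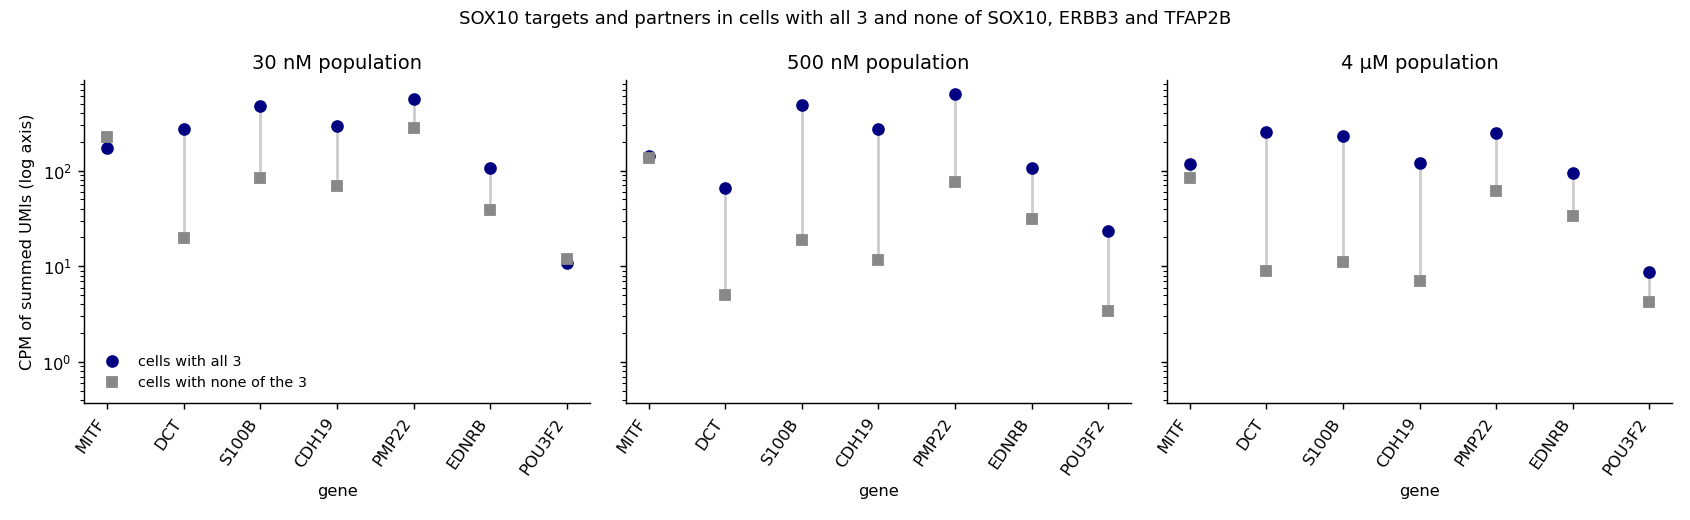
CPM, on a log axis, of measured SOX10 targets and partners in cells with all 3 of SOX10, ERBB3 and TFAP2B and in cells with none, at 30 nM, 500 nM and 4 µM. At 500 nM S100B stands at 488 against 18.8 CPM, whereas MITF stands at 143 against 136 CPM.

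The authors' clusters of listed cells put the SOX10 cells of all doses into a few classes. The clusters were made from these cells' expression, so the levels are a description. SOX10 was 287, 264, 226 and 176 CPM in clusters 0, 1, 2 and 3 and 16.7, 11.9, 7.19 and 5.56 CPM in clusters 4, 5, 6 and 7. NGFR and FOXD3 were highest in cluster 3, at 82.3 and 63.5 CPM.

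Within single populations clusters 0 to 3 again stood above clusters 4 to 7, among clusters of at least 20 cells. At 500 nM SOX10 was 251 CPM in 107 cells of cluster 2 and 129 CPM in 52 cells of cluster 3, against 8.62 CPM in 177 cells of cluster 6, with cluster 7 lower still. At 4 µM it was 125 CPM in 25 cells of cluster 2 and 158 CPM in 36 cells of cluster 3, against 8.72, 6.86 and 4.39 CPM in clusters 5, 6 and 7. TFAP2B at 4 µM was 323 and 211 CPM in clusters 2 and 3 and 17.4, 5.61 and 8.15 CPM in clusters 5, 6 and 7. At 30 nM NGFR was 146 CPM in cluster 3 and 1.60 CPM in cluster 4, while in cluster 3 at other doses it was 19.4 to 60.1 CPM.

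**Figure D5:**
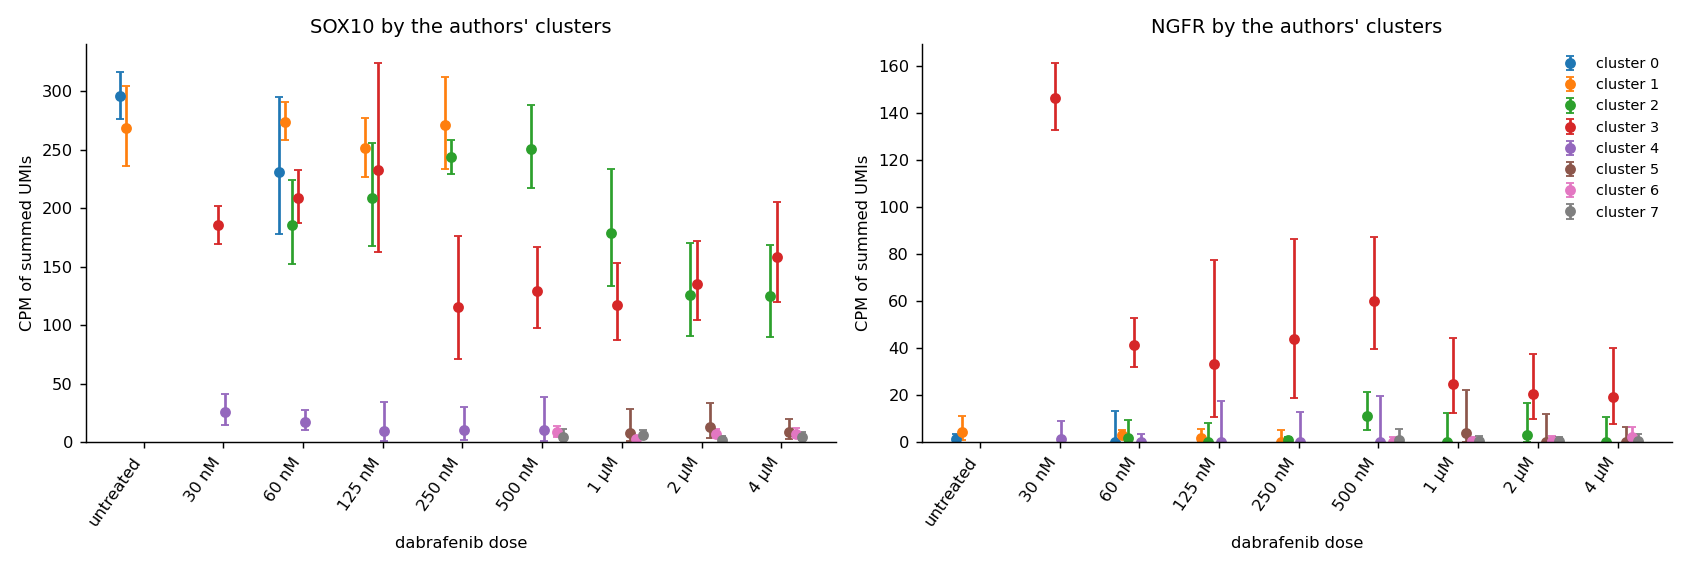
CPM of SOX10 (left) and NGFR (right) in the authors' clusters within each A375 population, against dabrafenib dose, for clusters of at least 20 cells. Bars are 95% counting intervals. At 4 µM SOX10 stands at 125 and 158 CPM in clusters 2 and 3 and at 4.39 to 8.72 CPM in clusters 5, 6 and 7.

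Pathway genes around the members, from lists of known function, were compared with untreated cells. SOX10 targets and partners were higher for 4 of 8 measured genes at 30 nM and lower for 0 (median 0.70, all genes -0.07), higher for 5 of 10 at 250 nM (1.02, all genes -0.09), and higher for 1 and lower for 5 of 8 at 4 µM (-1.12, all genes -0.17). Of all measured genes, 4.03% were higher and 4.97% lower at 30 nM, 3.91% and 5.45% at 250 nM, and 5.59% and 8.89% at 4 µM. At 30 nM, where SOX10 itself was 1.51-fold lower, DCT was 110 against 6.55 CPM, 16.8-fold higher, MITF 2.83-fold, PMP22 2.67-fold and CDH19 2.05-fold higher. At 4 µM the neural POU factor POU3F2 was 5.65-fold lower, S100B 3.30-fold, MIA 3.19-fold and CDH19 2.37-fold lower, and DCT 4.74-fold higher.

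ERBB3 partners and ligands were higher for 1 and lower for 0 of 7 measured genes at 30 nM, and higher for 2 and lower for 0 of 7 at 4 µM. All measured genes were higher for 4.03% and lower for 4.97% at 30 nM, and for 5.59% and 8.89% at 4 µM. A count of 0 or 1 among so few genes is therefore no result about the list. NRG1 was 23.8 CPM untreated and 305 CPM at 4 µM, 12.8-fold higher, so its RNA stood high where ERBB3 stood low. NRG3, a neuregulin that binds ERBB4, was 10.8-fold higher at 4 µM. NGFR ligands and co-receptors were higher for 1 of 4 measured genes at 30 nM and 2 of 5 at 4 µM, with 0 lower. The same shares of all genes stand beside these counts, with the same limit. BDNF was 6.12-fold higher at 30 nM and 11.3-fold at 4 µM, and its receptor NTRK2 11.7-fold at 4 µM.

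Neural crest specifiers other than the members split in direction. They were higher for 5 and lower for 1 of 13 measured genes at 30 nM (median 0.62), and higher for 5 and lower for 2 of 15 at 4 µM (median 0.22). For this list and the next, the shares of all genes were 4.03% higher and 4.97% lower at 30 nM. At 4 µM they were 5.59% and 8.89%. Among the specifiers at 4 µM, the crest and cartilage factor SOX9 was 8.41-fold higher and SNAI2, a factor of crest migration, 3.87-fold higher, while SOX5 was 4.62-fold and TFAP2C 5.02-fold lower. Neural crest-like melanoma markers were higher for 1 and lower for 1 of 7 at 30 nM, where the adhesion gene L1CAM was 4.99-fold higher and the progenitor filament NES 4.39-fold lower. They were higher for 1 and lower for 3 of 7 at 4 µM.

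Marker lists of other cell types also moved with dose. The fibroblast list summed to 19.5 CPM untreated, 126 at 30 nM and 111 at 4 µM, with 0 of its 7 genes at 0. The lung epithelial list summed to 304 to 1043 CPM over the A375 populations, of which KRT18 was 435 CPM untreated, with EPCAM at 0.683 and CDH1 at 0.455 CPM. The immune list was 7.94 to 32.5 CPM, the endothelial list 2.83 to 7.79 CPM, and the erythroid genes were not analysed here. The part of these genes in the member levels was not tested.

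Over the 9 A375 populations, which share 1 pool and its depth, genes were ranked by the Pearson correlation of log2 levels with each member, among 7661 genes, as a description with no test. ERBB3 was nearest to SOX10 (r = 0.998), followed by RPS6KA3 (0.992), PHACTR4 (0.989) and KPNA6 (0.988). Apart from SOX10, the nearest to ERBB3 were RPS6KA3 (0.992), DDX5 (0.989) and CACNA1D (0.988). The nearest to TFAP2B were SOCS7, ANKRD10, PELI1 and SGK3 (0.990 to 0.993). The nearest to FOXD3 were FAM189A1, MAF, HDAC9 and FAM78B (0.953 to 0.966), and to NGFR L1CAM, SOCS2, ABL2 and PPFIA1 (0.956 to 0.971). Between members r was 0.920 for SOX10 and TFAP2B, 0.673 for SOX10 and FOXD3, 0.318 for SOX10 and NGFR and 0.773 for FOXD3 and NGFR. Such likeness was common: 640 genes had r of at least 0.9 with SOX10, 628 with ERBB3, 704 with TFAP2B, 32 with FOXD3 and 16 with NGFR. By Spearman's rho ERBB3 (0.883) ranked 584 among the genes like SOX10. With ranks in place of levels, 0, 0, 0, 1 and 1 of the 4 named genes of SOX10, ERBB3, TFAP2B, FOXD3 and NGFR remained among the nearest 4.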

How the data were processed

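The deposited tables hold UMI counts per gene and cell, 1 table for each line, made with Cell Ranger 7.0.0 and GRCh38, per the submitters' processing notes. The authors' cell tables give the percent of mitochondrial counts, the cluster and the total UMIs of 5059 A375 and 4208 PC9 cells, per the file headers, and every listed total matched the counts. Population names stand in the cell names, where T05 was read as T0500. The A375 pool was sequenced in 2 runs that cannot be told apart in the table, and tag libraries entered only as those population names. Columns of per-sample values not used: 0.

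Counts were summed per population and expressed as CPM, with exact Poisson intervals. Ratios of CPM have exact binomial intervals and shares of cells have Clopper-Pearson intervals, at 95%. A gene counted as measured where the higher of 2 populations had 10 CPM and 20 UMIs or more, and as called at 2-fold with a pseudocount of 1 CPM. For detection, cells were thinned with seed 1 to 3832 UMIs, the lower of the lines' 10th percentiles. Counting, thinning and calling were tested on simulated data. Python 3.11.15, numpy 2.4.6, scipy 1.17.1, pandas 2.3.3, matplotlib 3.10.9, R 4.3.3 and edgeR 4.0.16 (for its TMM scaling only) were used.

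Named genes were the 5 members, the 4 genes nearest to each over 9 populations among genes of at least 25 CPM and 50 UMIs, and up to 4 genes of each pathway list by size of log2 ratio at 30 nM and 4 µM. Genes named in the comparison of all-3 with none cells were chosen after their values were seen. The members and lists were chosen with earlier results of these data known. Alternatives were another scaling, pseudocount, threshold, filter, depth and choice of cells. One gene of the lists is not reported here and was left out of their counts.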

Additional observations from a re-analysis of the deposited data

Results flagged for a closer look

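ERBB3 moved in opposite directions in the 2 lines at the highest adapted dose. On the log2(CPM + 1) scale it was -2.31 in A375 at 4 µM dabrafenib and 0.76 in PC9 at 1.2 µM osimertinib, each against the untreated culture of its line. The difference was not tested, each line had 1 culture per dose, and the drugs differ. In listed cells only, the PC9 value was 0.11.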

How the results depend on the processing

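With 1 culture per population no replicate could be left out, and no paired analysis was possible because no group had replicates and no result came from a test. The count of called-higher members over the 8 adapted A375 populations was 5. It was 3 with a minimum of 50 CPM, 2 with a 3-fold threshold, 3 in listed cells only, 3 without cells of more than 2 times the median UMIs, and 8 with the mean of per-cell CPM. The count of called-lower members was 11 and ranged from 10 to 15. TMM scaling left both counts at 5 and 11. In PC9 the count of called-higher members was 1, and 0 with a 3-fold threshold and in listed cells only. SOX10 detection in untreated cells (55.2%) was 61.9% at 5000 UMIs, 82.8% as deposited and 65.4% in listed cells, and at 4 µM (9.90%) it was 18.4% as deposited, 5.87% without cells of more than 2 times the median UMIs and 7.16% in listed cells. The share of cells with all 3 of SOX10, ERBB3 and TFAP2B was 24.1% at 5000 UMIs, 52.6% as deposited and 25.9% in listed cells for untreated cells (16.2%), and 11.5% as deposited at 4 µM (2.56%). For the changes of detection with depth, the alternative itself sets the number of UMIs read, and for the others the cause was not tested. The direction of some values turned: the untreated ratio of all-3 cells to the product of shares went from 1.16 to 0.970 in listed cells, the median of all genes at 125 nM from -0.09 to 0.02 without mitochondrial and ribosomal protein genes and at PC9 1.2 µM from 0.02 to -0.06 with TMM, and calls over all genes at 30 nM from 398 higher and 491 lower to 527 and 489 in listed cells. The median over all genes at 2 µM was -0.20 in CPM and -0.06 with TMM. Levels of NGFR and FOXD3 at high doses are limited by their few UMIs.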
